A study of Mus musculus with 37 samples.

Results

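The 9 genes described here are members of the transforming growth factor beta (TGF-beta) pathway, chosen by name: the ligands Tgfb1, Tgfb2 and Tgfb3, the receptors Tgfbr1, Tgfbr2 and Tgfbr3, the signal transducer Smad3, and the pathway's target genes and feedback inhibitors Smad7 and Pmepa1. They are 9 of the 55487 genes in the deposited table, and all 9 were among the 15564 genes expressed highly enough to be tested. RNA was sequenced from 37 whole mouse livers, from mice lacking Nox4, an NADPH oxidase that makes hydrogen peroxide (knockout, KO, NOX4-/-), and from wild-type mice (WT), after partial hepatectomy or a sham operation. The 19 KO livers were 5 sham, 3 at 6 h, 4 at 24 h, 4 at 48 h and 3 at 7 d, and the 18 WT livers were 5 sham, 3 at 6 h, 3 at 24 h, 4 at 48 h and 3 at 7 d. The sham livers of a genotype were taken at mixed times and were pooled, with 6 h, 24 h, 48 h, 48 h and 72 h in the KO and 6 h, 24 h, 48 h, 48 h and 7 d in the WT. All 6 h hepatectomy livers came from males, while every other group held both sexes, with 23 males and 14 females in all. The labels used here give neither a strain nor an age, and do not say in which cells Nox4 was deleted. In GRCm38 with GENCODE M21, the members called below lie at chr7:25687002-25705077 (Tgfb1, plus strand), chr1:186622792-186705989 (Tgfb2, minus), chr12:86056745-86079041 (Tgfb3, minus), chr9:116084293-116175360 (Tgfbr2, minus) and chr2:173224458-173276533 (Pmepa1, minus), and counts are over their exons.

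TGF-beta ligands are secreted in a latent form and, once freed, bind the type II receptor (Tgfbr2), which recruits and phosphorylates the type I receptor (Tgfbr1). Tgfbr1 then phosphorylates Smad2 and Smad3, which enter the nucleus with Smad4, and among the genes they induce are Smad7 and Pmepa1, which damp the signal. In liver the pathway is known as a brake on hepatocyte division and as a driver of stellate cell activation and fibrosis, and Nox4 is itself known as a TGF-beta target.

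Promoter sequences from RefSeq (build GRCm38.p6, 250 bases before to 50 bases after the annotated start) matched 5 of the 9 members. Those of the 3 members that differed between the genotypes at 24 h are shown, each 5′ to 3′ on the gene's own strand, with the Smad-binding motif CAGAC in capitals. They lie at chr7:25686752-25687051 on the plus strand (Tgfb1), chr1:186705940-186706239 on the minus strand (Tgfb2) and chr9:116175314-116175613 on the minus strand (Tgfbr2).
Tgfb1: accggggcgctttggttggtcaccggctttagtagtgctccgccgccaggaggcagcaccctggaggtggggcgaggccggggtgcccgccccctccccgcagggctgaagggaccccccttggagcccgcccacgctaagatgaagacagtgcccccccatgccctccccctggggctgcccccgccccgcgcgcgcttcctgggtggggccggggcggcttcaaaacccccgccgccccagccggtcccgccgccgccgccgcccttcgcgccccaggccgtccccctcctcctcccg
Tgfb2: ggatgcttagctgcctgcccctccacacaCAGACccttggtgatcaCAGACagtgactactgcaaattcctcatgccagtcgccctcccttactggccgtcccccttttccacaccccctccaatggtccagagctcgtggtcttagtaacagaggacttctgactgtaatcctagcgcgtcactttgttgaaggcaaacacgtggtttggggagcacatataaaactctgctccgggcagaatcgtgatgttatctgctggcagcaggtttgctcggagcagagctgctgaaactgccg
Tgfbr2: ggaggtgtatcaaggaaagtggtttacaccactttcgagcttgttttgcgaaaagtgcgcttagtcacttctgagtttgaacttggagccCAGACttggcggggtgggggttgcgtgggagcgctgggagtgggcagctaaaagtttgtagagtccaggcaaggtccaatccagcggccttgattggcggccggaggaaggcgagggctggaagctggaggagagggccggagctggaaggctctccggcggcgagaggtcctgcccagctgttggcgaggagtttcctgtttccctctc
The Tgfb2 promoter held 2 copies of CAGAC, 221 and 204 bases before the start, and the Tgfbr2 promoter held 1, at 160 bases before it, while the Tgfb1 promoter held none. Searched on both strands as CAGAC and GTCTG, the motif is in 49.6% of the 32851 mouse promoters of this length. The AP-1 motif TGACTCA, which reads as TGAGTCA on the other strand, was in none of the promoters of the 5 members and is in 5.2% of all. These matches describe letters in a window and do not show binding.

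Total counts per library ranged from 26232544 to 48827025, and 6 hepatocyte markers together held 41110 CPM or more in each liver. Nox4 itself ranged from 0 to 4.98 CPM (counts scaled to library size by the TMM method) in the KO livers and from 0.778 to 23.5 CPM in the WT livers, so the ranges overlapped, and the labels do not say which exons were removed. The lowest WT value was in WT 24 h replicate 2, a female. Among females Nox4 was 0 to 0.245 CPM in KO livers and 0.778 to 3.36 CPM in WT livers, with no overlap. Among males it was 0.325 to 4.98 CPM in KO livers and 3.95 to 23.5 CPM in WT livers, which overlapped. Among the 24 h livers, KO replicate 1 held 12.1 CPM of Tgfbr2 against 78.0 to 116.5 CPM in the other KO livers, and WT replicate 3 had 8.93% of its counts on mitochondrial genes, against 3.17% and 3.64% in the other WT 24 h livers and 4.51% to 7.27% in the KO ones. Calls at 24 h that change without these libraries are given below. P-values are from edgeR's quasi-likelihood test with sex as a term, adjusted by Benjamini-Hochberg across every gene in the fit and called under 0.05. They set each change against the spread between livers, which was estimated in 1 fit of all 37.

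Relative to gene length, Tgfbr2 was the highest of the 9 members and Tgfb2 the lowest. Over all 37 livers the mean level per kilobase of exon was 3.87 CPM for Tgfbr2, 2.52 for Tgfb1, 1.92 for Smad7, 1.56 for Smad3, 1.40 for Tgfbr1, 1.04 for Tgfbr3, 0.672 for Pmepa1, 0.347 for Tgfb3 and 0.0634 for Tgfb2. Tgfb1 was thus the main ligand transcript, and the receptors lay within a narrower span than the ligands. In whole liver, fewer cells of an expressing type and less RNA in each such cell cannot be told apart.

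**Figure D1:**
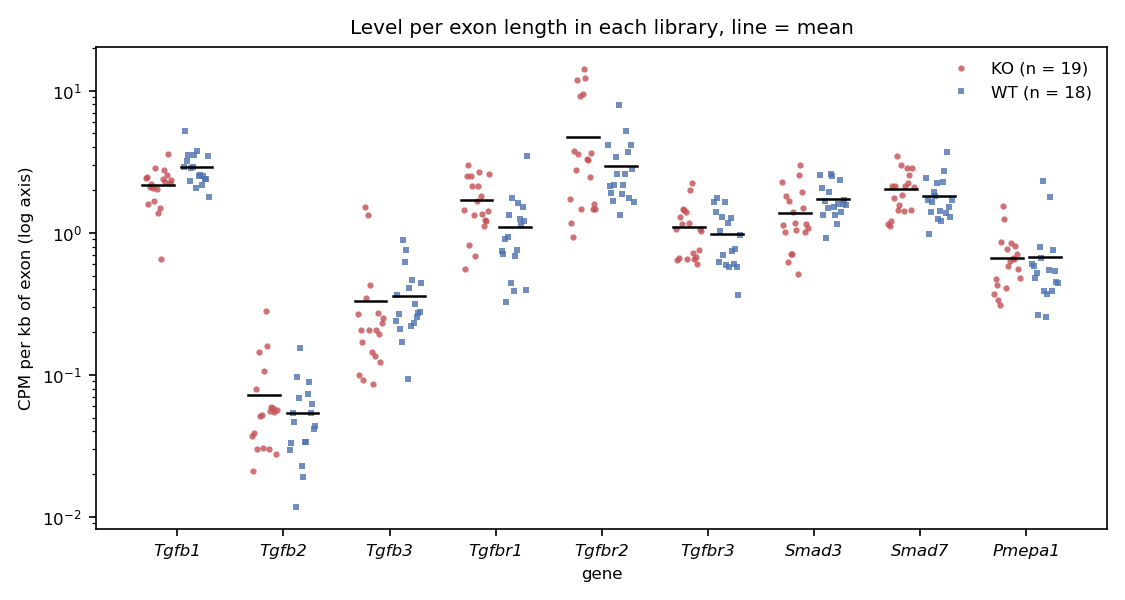
Level of each member per kilobase of exon (CPM per kb, log axis) in each liver, KO as circles (n = 19) and WT as squares (n = 18), with a line at each mean. Tgfbr2 spans the widest range among the receptors, and Tgfb2 lies lowest of all 9.

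At 6 h after hepatectomy the ligand Tgfb3 and the inhibitor Pmepa1 rose in both genotypes, and the receptor Tgfbr2 rose in the KO. These were 3 of the 9 members in KO livers, with none lower, where 6.62% of all genes changed, and 2 of 9 in WT livers, again with none lower, where 7.86% changed. The median log2 change over the 9 was 0.66 in KO livers and 0.58 in WT livers, with medians close to 0 over all genes (-0.0035 and 0.025).

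Tgfb3 encodes the ligand best known for its part in palate fusion and scarless repair. It stood at 5.17, 1.17 and 4.50 CPM in KO livers at 6 h, against 0.913, 0.337, 0.698, 0.580 and 0.313 CPM in KO sham livers. Every 6 h liver was above every sham liver, with a log2 change of 2.66 (SE 0.48, adjusted p = 0.00107). In WT livers at 6 h Tgfb3 was 2.998, 2.12 and 2.56 CPM, against 0.814, 1.23, 0.907, 0.713 and 0.577 CPM in WT sham livers, and the groups again did not overlap (log2 change 1.61, SE 0.50, adjusted p = 0.0422). The WT change lay close to the threshold and lost its call in 22 of 37 fits that each left out 1 liver, while the KO change kept it in all 37. Among males alone the WT change did not pass (adjusted p = 0.268) and the KO change did (adjusted p = 0.034). The difference between the genotypes in this rise did not pass (log2 difference 1.05, SE 0.68, adjusted p = 1).

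Pmepa1 encodes a membrane protein that holds Smad2 and Smad3 away from the receptor. It was 4.24, 7.64 and 6.15 CPM in KO livers at 6 h, against 1.83, 2.33, 2.09, 1.66 and 1.53 CPM in KO sham livers. These groups were fully apart (log2 change 1.76, SE 0.42, adjusted p = 0.00988), and the call held with every liver left out in turn. In WT livers at 6 h Pmepa1 was 3.89, 3.27 and 11.4 CPM, against 2.96, 2.85, 2.36, 2.55 and 1.29 CPM in WT sham livers (log2 change 1.48, SE 0.43, adjusted p = 0.0307). WT 6 h replicate 3 was far above the other two, and without it the log2 change was 0.69 and no longer passed (adjusted p = 0.458). The WT call was also lost without WT sham replicate 1, 3 or 4 and among males alone (adjusted p = 0.203), where the KO call held (adjusted p = 0.0292).

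Tgfbr2, the ligand-binding receptor, was 97.8, 29.2 and 74.9 CPM in KO livers at 6 h, against 14.2, 9.60, 7.63, 31.0 and 22.7 CPM in KO sham livers. The second 6 h liver lay within the sham range and the other 6 h livers above it (log2 change 1.81, SE 0.47, adjusted p = 0.0175), and the call was lost without KO 6 h replicate 1 or replicate 3. All 6 h livers were male, and among males alone the log2 change was 1.53 and did not pass (adjusted p = 0.0803). In WT livers at 6 h it was 27.9, 21.1 and 64.7 CPM, against 34.2, 17.3, 15.7, 13.6 and 17.7 CPM in WT sham livers, and the log2 change of 0.58 did not pass (SE 0.49, adjusted p = 0.489). The difference between the genotypes in this Tgfbr2 change did not pass either (log2 difference 1.24, SE 0.67). Nor did KO against WT livers at 6 h (log2 difference 0.83, SE 0.53, adjusted p = 0.602). Tgfb2 was 0.398 to 0.893 CPM in WT livers at 6 h and 0.0679 to 0.311 CPM in WT sham livers, with no overlap, but its log2 change of 1.40 did not pass (SE 0.58, adjusted p = 0.131). Neutrophil markers moved at the same time: their summed level was 12.6 to 27.7 CPM in KO livers at 6 h against 3.29 to 9.41 CPM in KO sham livers, and 28.3 to 67.5 CPM in WT livers at 6 h against 2.57 to 11.2 CPM in WT sham livers. Of the 5 neutrophil markers tested, 3 rose in the WT and none passed in the KO. The summed cholangiocyte markers lay apart from sham as well, at 15.4 to 59.6 CPM in KO livers at 6 h against 4.42 to 8.97 CPM in KO sham livers, and at 24.1 to 121.1 CPM in WT livers at 6 h against 9.93 to 21.6 CPM in WT sham livers. Of the 5 cholangiocyte markers 1, Sox9, rose in the WT and none passed in the KO, and of 6 myofibroblast markers 1, Tagln, rose in each genotype. The part of these cells in the results was not tested.

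**Figure D2:**
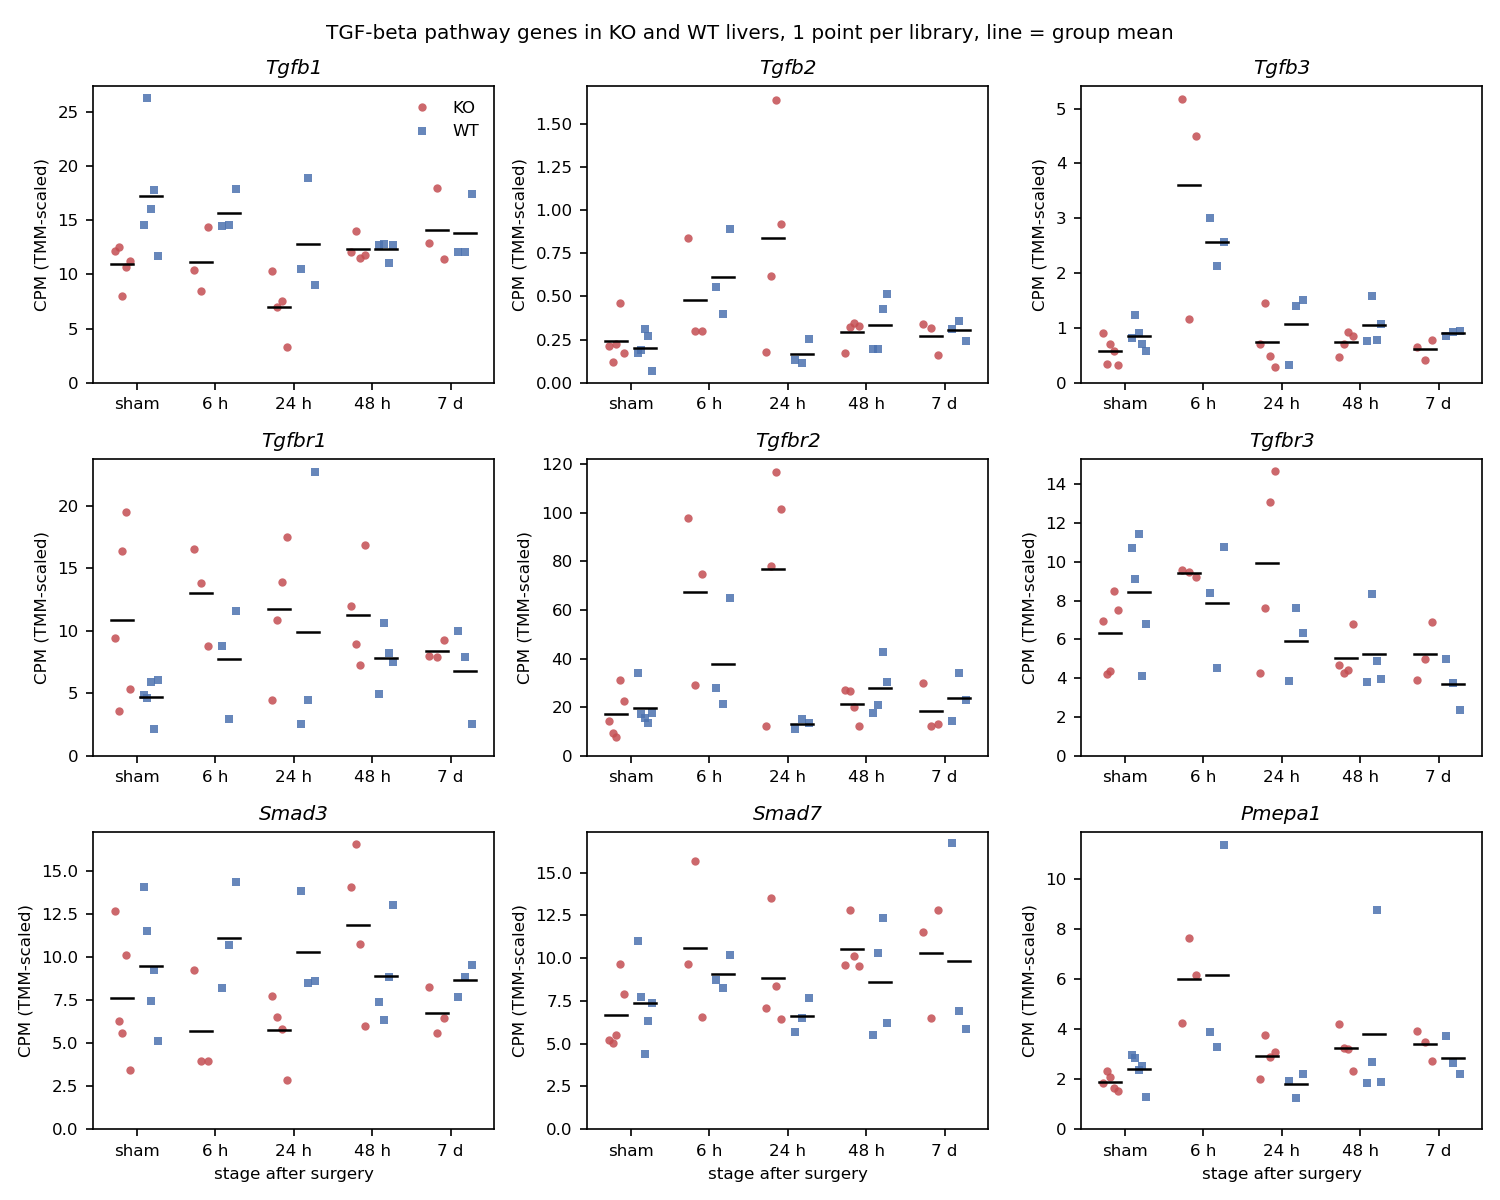
CPM (TMM-scaled, linear axis) of each member in every liver by stage, KO circles to the left of WT squares, with a line at each group mean. On this scale the means of Tgfb3 and Pmepa1 are highest at 6 h in both genotypes. Tgfbr2 is above 70 CPM in 3 of the 4 KO livers at 24 h, while all WT livers at 24 h are below 16 CPM.

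At 24 h the called changes were in KO livers. There Tgfbr2 and Tgfb2 were higher than in sham livers, 2 of 9 members with none lower, where 28% of all genes changed. No member passed in WT livers at 24 h, where 0.925% of genes changed. The share of members called in KO livers was thus below that over all genes.

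Tgfbr2 was 12.1, 78.0, 116.5 and 101.4 CPM in KO livers at 24 h and 10.99, 15.3 and 13.5 CPM in WT livers at 24 h. Of the 4 KO livers 3 were far above every WT liver, and KO replicate 1 lay among the WT livers. The log2 difference between KO and WT at 24 h was 2.53 (SE 0.54, adjusted p = 0.00342), and that between KO livers at 24 h and KO sham livers was 2.30 (SE 0.44, adjusted p = 0.000445). The change from sham differed between the genotypes by a log2 value of 2.94 (SE 0.67, adjusted p = 0.0102), which makes Tgfbr2 the 1 member of 9 called in that interaction, where 8.47% of all genes passed. Each of the 3 Tgfbr2 results kept its direction whichever liver was left out, with ranges of 2.06 to 2.89, 1.87 to 2.62 and 2.52 to 3.33. The interaction alone lost its call, without WT 24 h replicate 3 (adjusted p = 0.0717).

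Tgfb2, the least abundant ligand, was 0.176, 0.620, 1.64 and 0.920 CPM in KO livers at 24 h, which is 5, 21, 37 and 22 counts. In WT livers at 24 h it was 0.132, 0.111 and 0.255 CPM, or 5, 4 and 10 counts. KO replicate 1 again lay in the WT range and the other KO livers above it. The log2 difference between KO and WT was 2.32 (SE 0.61, adjusted p = 0.0110), and against KO sham livers, at 0.215, 0.123, 0.224, 0.464 and 0.174 CPM, it was 1.76 (SE 0.50, adjusted p = 0.00910). The first call was lost without KO 24 h replicate 3 or WT 24 h replicate 2, and the second without KO 24 h replicate 3 and among males alone (adjusted p = 0.0525). The change of Tgfb2 from sham to 24 h differed between KO and WT livers by a log2 value of 2.16 that did not pass (SE 0.79, adjusted p = 0.078), but passed without KO 24 h replicate 1 (adjusted p = 0.017) and without both that liver and WT 24 h replicate 3 (adjusted p = 0.0187).

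Tgfb1, the main ligand, went the other way. It was 10.3, 6.97, 7.55 and 3.30 CPM in KO livers at 24 h and 10.5, 18.9 and 9.03 CPM in WT livers at 24 h. The ranges overlapped through KO replicate 1, and the log2 difference was -0.86 (SE 0.29, adjusted p = 0.0344). Without KO 24 h replicate 2, 3 or 4, or without WT 24 h replicate 2, the call was lost, and among male livers alone the log2 difference was -0.48 and did not pass (adjusted p = 0.25). Against KO sham livers, at 12.2, 12.51, 8.03, 10.7 and 11.2 CPM, the log2 change of Tgfb1 in KO livers at 24 h was -0.65 and missed the threshold (SE 0.26, adjusted p = 0.0567). It passed in 15 of 37 fits that each left out 1 liver, among them the one without KO 24 h replicate 1 (adjusted p = 0.0128), with DESeq2 (adjusted p = 0.0429), and without both KO 24 h replicate 1 and WT 24 h replicate 3 (adjusted p = 0.00575). Mean Tgfb1 was also lower in KO than in WT sham livers, at 10.9 against 17.3 CPM. That log2 difference of -0.62 did not pass (SE 0.24, adjusted p = 0.254). The change of Tgfb1 from sham to 24 h differed little between the genotypes, by a log2 value of -0.24 that did not pass (SE 0.37, adjusted p = 0.708).

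Between KO and WT at 24 h the members called were therefore 3 of 9, with Tgfb2 and Tgfbr2 higher and Tgfb1 lower, where 18.6% of all genes passed. The KO to WT contrast shares its KO livers with the contrast of KO 24 h against sham, so the 2 are not separate evidence. Without KO 24 h replicate 1, 5 members passed between KO and WT at 24 h: Tgfbr3, the co-receptor betaglycan, at a log2 difference of 0.99 (adjusted p = 0.0386), and Smad3, at -1.07 (adjusted p = 0.0362), joined the 3. The 18.6% belongs to the fit of all 37 livers, so the 5 of 9 has no share over all genes from its own fit beside it. Leaving out KO 24 h replicate 1 also changed calls over all genes: those in the interaction at 24 h rose from 1319 to 3659. For KO against WT at 24 h, 2891 genes passed in the fit of all 37 livers. Without both KO 24 h replicate 1 and WT 24 h replicate 3, 5522 did. A fit of the 24 h livers alone, 4 KO and 3 WT, called no gene at all, members included.

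Some cell type markers were called at 24 h too. Of all genes 18.6% passed between KO and WT livers at 24 h, and 28% between KO livers at 24 h and KO sham livers. The stellate and hepatocyte shares given below for KO against WT did not exceed the first of these. Of 8 sinusoidal endothelial markers 6 were lower in KO than in WT livers at 24 h, and their sum was 56.4 to 82.6 CPM in KO livers against 100.7 to 224.2 CPM in WT livers. Of 8 Kupffer cell markers 3 were lower, with overlapping sums of 100 to 344 CPM in KO livers and 243 to 502 CPM in WT livers, and 3 of 5 cholangiocyte markers were higher. Of 8 stellate cell markers 1 was lower, with overlapping sums of 115 to 228 CPM in KO livers and 79.2 to 215 CPM in WT livers. Of 6 hepatocyte markers 1 was higher, with sums of 87170 to 143000 CPM in KO livers at 24 h and 41110 to 81160 CPM in WT livers at 24 h. Against KO sham livers, KO livers at 24 h had 6 of 8 sinusoidal endothelial markers lower and 1 higher, 7 of 8 Kupffer cell markers lower and 6 of 7 T and NK cell markers lower. No marker of these lists was at 0 in a whole group, and the part of these cells in the results was not tested.

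**Figure D3:**
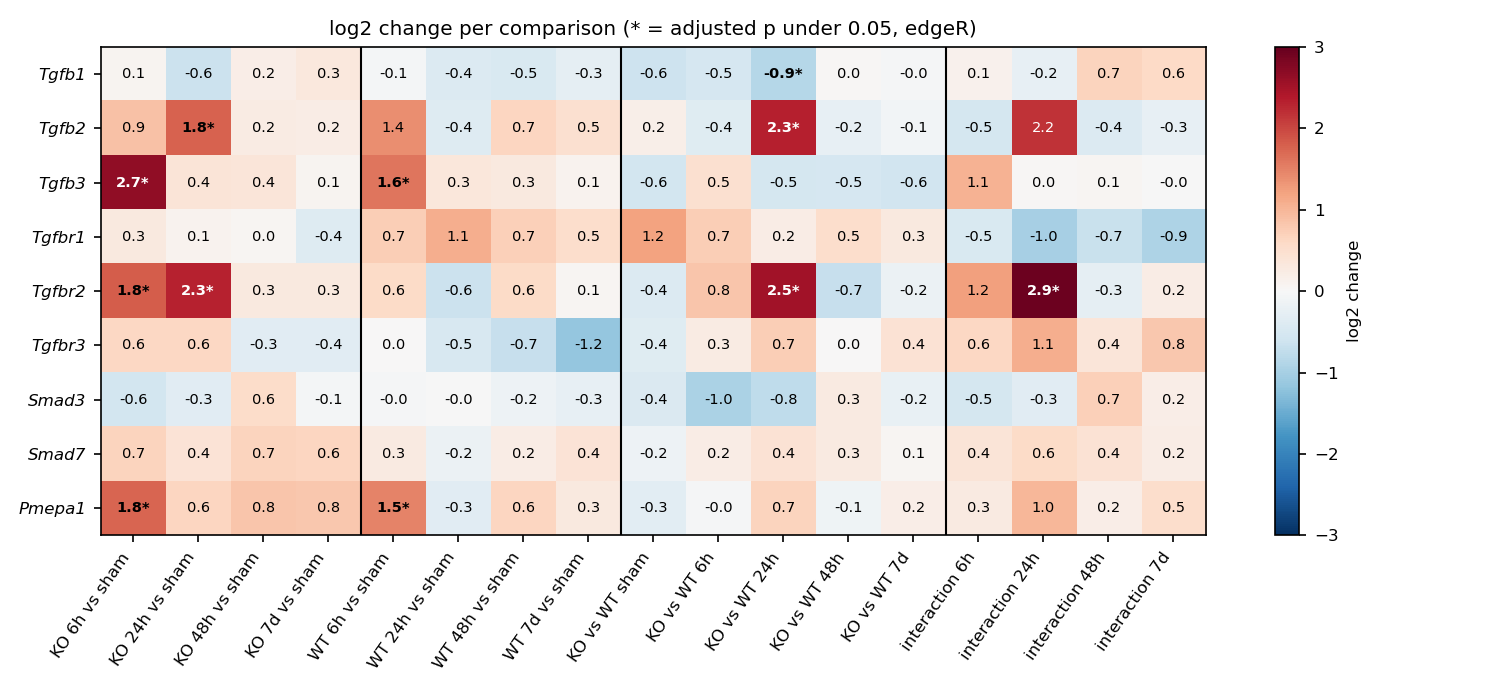
Log2 change of each member (rows) in each comparison (columns), with red for higher and blue for lower in the group named first, and an asterisk for an adjusted p under 0.05 in edgeR. Called changes lie in the 6 h and 24 h columns alone.

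**Figure D4:**
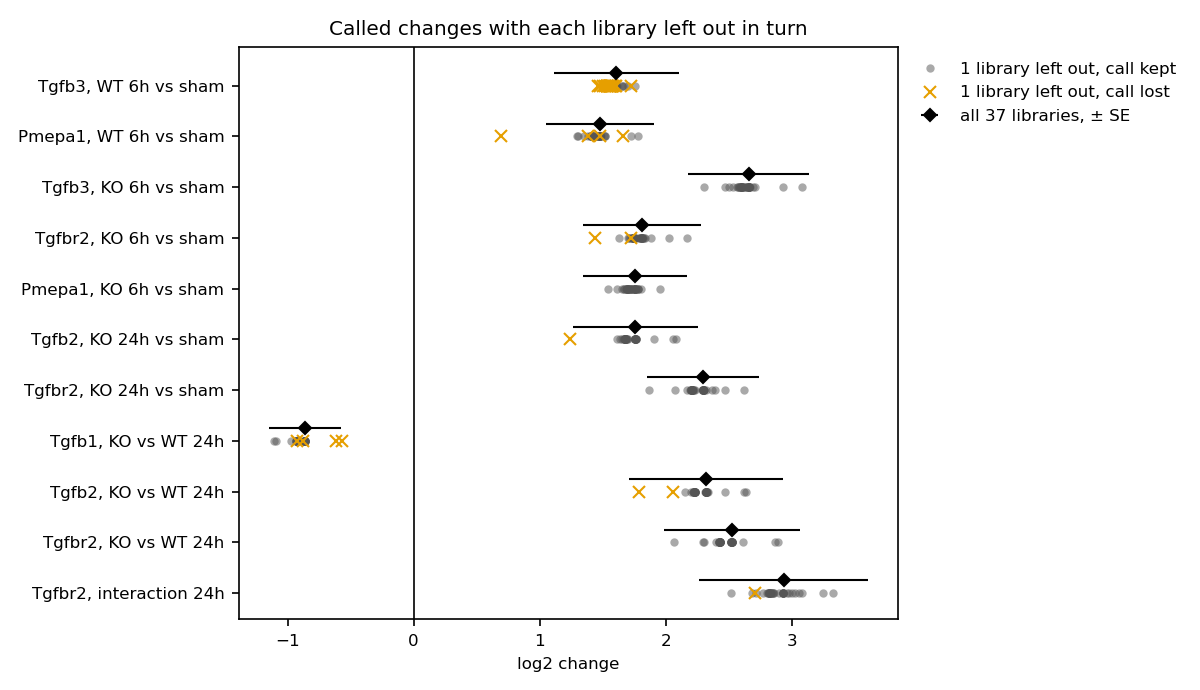
Each called change of a member with all 37 livers (diamond, with its SE) and with 1 liver left out at a time (circles where the call held, crosses where it was lost), on the log2 scale. No point crosses 0, and the Tgfb3 change in WT livers has the most lost calls.

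At the remaining stages no member passed in edgeR. At 48 h against sham, none of 9 passed in KO livers, where 3% of genes changed, and none in WT livers, where 8.29% changed; at an unadjusted p under 0.05 there were 2 in the KO and none in the WT. At 7 d against sham 0% of genes passed in either genotype, with no member at an unadjusted p under 0.05 in the KO and 1 in the WT, Tgfbr3, at a log2 change of -1.15 (SE 0.39, adjusted p = 0.662). For KO against WT, no member passed in sham livers (0.276% of genes, 2 members at an unadjusted p under 0.05), at 6 h (0.116%, 1 member), at 48 h (0.341%, none) or at 7 d (0.045%, none). In the interactions at 6 h, 48 h and 7 d 0% of genes passed and no member had an unadjusted p under 0.05. DESeq2 called no member in any of these comparisons or in WT livers at 24 h, where none had an unadjusted p under 0.05 either.

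Averaged over the stages, KO against WT called no member, where 2.72% of genes passed. At an unadjusted p under 0.05 there were 3: Tgfb1 at a log2 difference of -0.40 (SE 0.13, adjusted p = 0.0811), Smad3 at -0.42 (SE 0.17, adjusted p = 0.158) and Tgfbr1 at 0.60 (SE 0.26, adjusted p = 0.199). Tgfb1 averaged 10.9 ± 3.18 CPM in KO livers (SD, n = 19) and 14.6 ± 4.04 CPM in WT livers (SD, n = 18), and DESeq2 called it (adjusted p = 0.0466). Without both KO 24 h replicate 1 and WT 24 h replicate 3, a choice made after seeing the data, all 3 passed, with log2 differences of -0.51, -0.54 and 0.97. In that fit 3525 of all genes passed, against 423 in the fit of all 37 livers.

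Tgfbr1, the signalling receptor, varied widely within groups. In sham livers it was 9.45, 3.62, 16.4, 19.5 and 5.35 CPM in the KO and 4.88, 4.61, 5.94, 2.14 and 6.11 CPM in the WT. The KO livers reached further up but overlapped the WT ones (log2 difference 1.21, SE 0.50, adjusted p = 0.292). WT 24 h replicate 3 held 22.7 CPM against 2.54 and 4.48 CPM in the other WT livers at 24 h, and without both that liver and KO 24 h replicate 1 the log2 difference between KO and WT at 24 h was 1.97 (adjusted p = 0.0139).

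Tgfbr3 presents ligand to Tgfbr2. It was 4.29, 7.65, 13.1 and 14.7 CPM in KO livers at 24 h and 3.88, 7.62 and 6.31 CPM in WT livers at 24 h, with overlap through KO replicate 1 and a log2 difference of 0.73 that did not pass (SE 0.39, adjusted p = 0.18). Without KO 24 h replicate 1 it passed in that comparison, in KO livers at 24 h against KO sham livers (log2 change 0.87, adjusted p = 0.0349) and in the interaction at 24 h (1.33, adjusted p = 0.0401), but without both that liver and WT 24 h replicate 3 it passed in none of the 3. At 6 h the 3 KO livers lay close together, at 9.58, 9.49 and 9.20 CPM, while the WT livers spread over 8.40, 4.55 and 10.8 CPM.

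Smad3, the transducer, was 9.24, 3.95 and 3.95 CPM in KO livers at 6 h and 8.22, 10.7 and 14.4 CPM in WT livers at 6 h. Of the 3 KO livers 2 lay below all WT ones, and the log2 difference of -0.96 did not pass (SE 0.41, adjusted p = 0.407). At 24 h it was 7.73, 6.53, 5.82 and 2.84 CPM in KO livers and 13.8, 8.48 and 8.63 CPM in WT livers. Every KO liver lay below every WT liver, and the log2 difference of -0.77 did not pass (SE 0.38, adjusted p = 0.15) unless KO 24 h replicate 1 was left out, as given above. Smad7, which targets the receptor for degradation, had the smallest spread of group means, with the highest 1.61 times the lowest, and passed in no comparison. In KO livers it was 6.65 ± 2.03 CPM in sham, 10.6 ± 4.63 at 6 h, 8.86 ± 3.20 at 24 h, 10.5 ± 1.55 at 48 h and 10.3 ± 3.34 at 7 d (SD, n = 5, 3, 4, 4 and 3). In WT livers it was 7.38 ± 2.41 CPM in sham, 9.05 ± 1.01 at 6 h, 6.61 ± 1.01 at 24 h, 8.59 ± 3.29 at 48 h and 9.85 ± 5.99 at 7 d (SD, n = 5, 3, 3, 4 and 3). The groups overlapped at every stage.

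With the 10 groups put in order of their mean, neighbours overlapped in all 9 steps for every member but Tgfb3, where WT livers at 6 h lay wholly above WT livers at 24 h. The share of such separate steps over all genes is not given here, so this step is not read as a trait of Tgfb3. The highest group mean was 6.36 times the lowest for Tgfb3, 5.81 times for Tgfbr2, 5.06 times for Tgfb2, 3.45 times for Pmepa1 and 2.46 times for Tgfb1. Tgfbr2 and Tgfb2 were both highest in KO livers at 24 h and lowest in WT livers at 24 h.

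No member passed between male and female livers in edgeR, where 3.59% of all genes did, or in DESeq2. Tgfbr2 averaged 37.5 ± 28.5 CPM in males (n = 23) and 22.0 ± 24.3 CPM in females (n = 14, SD), a log2 difference of 0.69 after the group term (SE 0.25, adjusted p = 0.141), and Smad3 was the other member with an unadjusted p under 0.05.

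Outside the 9 members, 35 further pathway genes were grouped by role, and 32 were tested. At 6 h 5 rose and none fell in KO livers, and 4 rose and none fell in WT livers, where 6.62% and 7.86% of all genes changed. Thbs1 (thrombospondin 1, an activator of latent ligand), Skil and Tgif1 (repressors of Smad transcription) rose in both genotypes. With 1 liver left out at a time, over 37 fits, the call of Tgif1 was lost in 3 fits in the KO and 19 in the WT, that of Skil in 5 in the KO and 6 in the WT, and that of Thbs1 in 1 in each. Among males alone Thbs1 and Skil passed in neither genotype, and Tgif1 passed in the KO but not in the WT. Hbegf, a ligand of the epidermal growth factor receptor, was called in the KO, at a log2 change of 4.97 (SE 0.86, adjusted p = 0.000735), though 1 KO liver at 6 h was within the sham range. Of the other receptor genes 3 were tested, Acvrl1 (ALK1), Eng (endoglin) and Tgfbrap1, and none passed at any stage.

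At 24 h 7 of the 32 rose and 1 fell in KO livers against sham, and none passed in WT livers. Between KO and WT at 24 h 4 were higher and 1 lower. Beside the 28% and 18.6% of all genes that passed in these comparisons, the list's shares were somewhat below the background. Tgif1 was 5.48 to 65.9 CPM in KO livers at 24 h (median 36.98) and 5.06 to 9.26 CPM in WT livers at 24 h (log2 difference 2.27, SE 0.50, adjusted p = 0.00416), and its lowest KO value lay in the WT range. Hbegf was 0.879 to 28.6 CPM in KO livers and 0.555 to 0.806 CPM in WT livers, with no overlap (log2 difference 4.10, SE 0.98, adjusted p = 0.00626). Thbs1 and Furin, a protease that cleaves the ligand precursors, were the other 2 higher genes, and lost their calls in 4 and 18 of the 37 fits that each left out 1 liver. Furin (adjusted p = 0.0401) also lost it with no count filter, with no sex term and without both KO 24 h replicate 1 and WT 24 h replicate 3. Nrros, which anchors latent TGF-beta on macrophages, was the lower gene (log2 difference -1.03, SE 0.28, adjusted p = 0.0117). In the interaction at 24 h 3 of the 32 were higher, Hbegf, Tgif1 and Lrrc32, a share close to the 8.47% of all genes. Their calls were lost in 2, 5 and 22 of the 37 fits that each left out 1 liver, and that of Lrrc32 (adjusted p = 0.0411) also with no count filter and among males alone.

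Lrrc32 (GARP), which tethers latent TGF-beta to the cell surface, was lower in KO than in WT livers in sham, at 48 h and over the stages. It was 3.06 to 5.18 CPM in KO sham livers (median 3.64) and 6.68 to 14.6 CPM in WT sham livers (median 9.52), with no overlap (log2 difference -1.35, SE 0.24, adjusted p = 0.00319). At 48 h the log2 difference between KO and WT livers was smaller (-1.20, SE 0.27, adjusted p = 0.0347), and over all stages it averaged 5.24 CPM in KO livers and 9.54 CPM in WT livers (-0.89, SE 0.12, adjusted p = 2.87e-05). The sham and average calls held with each liver left out in turn, but the sham call was lost among males alone and in a fit of the sham livers alone. The 48 h call was lost in 7 of those 37 fits. At 24 h Lrrc32 was 8.67 ± 2.84 CPM in KO livers and 9.56 ± 2.99 CPM in WT livers (SD, n = 4 and 3), and it rose in KO livers at 24 h against KO sham livers (1.17, SE 0.25, adjusted p = 0.00110). Lrrc32 lies on the same chromosome as Nox4, at chr7:98489283-98502181 against chr7:87246096-87398710 (GRCm38), so that loss of Nox4 and sequence linked to it cannot be told apart here. Ltbp4, a latent TGF-beta binding protein, was the 1 list gene called at 48 h against sham, lower in WT livers (-1.42, SE 0.28, adjusted p = 0.00250), and at 7 d none passed.

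Across the 37 livers, the log2 levels of the members were compared with those of 11669 other genes by Pearson's r, as a description in which the livers share their groups. The genes most like Tgfbr2 were Fam160a2 (r = 0.888) and Tex10 (0.886), and those most like Tgfb2 were Leprot (0.810) and Mapk6 (0.797). Tgfbr1 had the closest partners of all members, Qk (0.971) and Exoc5 (0.965), and Smad7 the most distant, with Id1 at 0.616. Tgfb1 was most like Il2rg (0.835), Tgfb3 like Rasip1 (0.731), Tgfbr3 like Ankrd44 (0.831), Smad3 like Arhgef11 (0.779) and Pmepa1 like Gcnt2 (0.687). The partners depended on the measure. By Spearman's rho Tgfbr2 alone kept both of its closest genes, while Tgfb2, Tgfbr1, Tgfbr3 and Smad7 kept neither. Among the 36 pairs of members, Tgfb2 and Tgfbr2 were the most alike (r = 0.757) and Tgfb1 and Tgfbr1 the least (r = -0.535).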

How the data were processed

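RNA sequencing of 37 mouse livers was analysed from 1 deposited table of 55487 genes. Its values were treated as RSEM-type expected counts: the submitters' processing notes name STAR 2.5.3a, RSEM 1.3.0 and GRCm38, and the deposited values are whole numbers, but which tool made them, the annotation release and the strand setting are not given in the sources used here. Genes that overlap another on the opposite strand therefore have less certain values, although the annotated neighbours overlapping the members held at most 6 counts in all. Of the identifiers, 54435 matched GENCODE M21.

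Genes passing filterByExpr (15564) were scaled by TMM and tested in R 4.3.3 with edgeR 4.0.16 (robust quasi-likelihood, 10 groups and sex, all 37 libraries, common biological coefficient of variation 0.39), with Benjamini-Hochberg adjustment over all of them and a threshold of 0.05. The SE of a change is its size over the root of the F statistic. No replicates looked like 1 library deposited again, with a chi-square over its degrees of freedom of at least 32.07 for any pair of a group. Likeness used log2 CPM with a prior count of 2, over genes with a mean of at least 1 CPM, by Pearson's r and as an alternative by Spearman's rho. The 19 contrasts were each stage against pooled sham livers, KO against WT at each stage and on average, the interactions, and male against female. The fit was tested on simulated data.

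The members, the pathway and cell type lists and the named genes were chosen with earlier results of these data known. Named were all 9 members, up to 3 called pathway list genes a direction and comparison by smallest p, and the genes most like each member, while further list genes were picked after their values were seen. Values of 1 list gene are not reported here, though it stays in the counts of the list. The alternatives tried were no sex term, no count filter, RLE scaling, DESeq2 1.42.0, males alone, no 6 h sham livers, the compared groups alone, and each library left out. Leaving out 2 of the 24 h livers together was added after seeing the data. The labels give no batch and no animal numbers. Figures were drawn with matplotlib 3.10.9 (Python 3.11.15).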

Additional observations from a re-analysis of the deposited data

Results flagged for a closer look

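In 4 groups 1 liver lay far from the other livers of its group by Dixon's test at the 95% level, out of 45 groups of members tested, and chance gives about 1 in 20. Tgfbr2 was 34.2 CPM in WT sham replicate 1, against 13.6 to 17.7 CPM in the other WT sham livers. Pmepa1 was 8.78 CPM in WT 48 h replicate 3, against 1.83 to 2.70 CPM in the other WT 48 h livers. Tgfb1 was 11.01 CPM in the same liver, against 12.7 to 12.8 CPM in the others. Tgfb2 was 0.173 CPM in KO 48 h replicate 1, against 0.325 to 0.344 CPM in the other KO 48 h livers. Tgfbr2 is also listed here because its change from sham to 24 h differed between KO and WT livers, by 2.94 on the log2 scale in a test of the difference itself (edgeR, adjusted p = 0.0102).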

How the results depend on the processing

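No paired analysis was possible because the labels give no replicate numbers. No called change of a member reversed under any alternative. The number of members called, which was 2 at 6 h against sham in WT livers, became 1 once the 6 h sham livers were dropped, 0 among male livers and 0 in a fit of the compared groups alone. It became 1 in place of 3 in KO livers at 6 h in the compared groups alone, and 1 in place of 2 in KO livers at 24 h both in males alone and in the compared groups alone. For KO against WT at 24 h and for the interaction at 24 h the compared groups alone gave 0. Without the count filter, which changes how many genes are tested, 1 member was called in WT livers at 24 h (Tgfbr1), 1 for KO against WT in sham livers (Tgfbr1), 2 for KO against WT on average and 1 between the sexes (Tgfbr2). Calls over all genes rose there too, from 144 to 1187 in WT livers at 24 h and from 43 to 871 between the sham groups. Between the sexes they rose from 558 to 1093. With the filter, the Tgfbr1 change in WT livers at 24 h ran from -0.43 to 1.54 as each liver was left out in turn, so its sign was not stable. On average over the stages DESeq2 called 1 member. Without the 2 livers left out after seeing the data the numbers called were 5 for KO against WT at 24 h, 2 for the interaction at 24 h and 3 on average. Calls over all genes rose as well, from 2891 to 5522 for KO against WT at 24 h. On average over the stages they rose from 423 to 3525. With each liver left out in turn the members called numbered 0 to 2 at 6 h in WT livers, 2 to 3 at 6 h and 1 to 4 at 24 h in KO livers, 1 to 5 for KO against WT at 24 h, 0 to 3 for the interaction at 24 h and 0 to 2 on average. The cause of these changes was not tested. Scaling by RLE or DESeq2 size factors moved the median change of all genes by at most 0.0378 on the log2 scale. With plain library sizes in place of TMM, 10 group means of members moved by at least the group's SD, and 80 did not. Pmepa1 in WT livers then averaged 4.31 CPM at 6 h and 4.35 CPM at 48 h, against 6.17 and 3.80 CPM with TMM. The size of each group, 3 to 5 livers, and the low counts of Tgfb2 limit the precision.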
